A study of Mus musculus with 4 samples.

Results

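The genes described here are the glycosyltransferases and sulfotransferases that build and cap the glycans of glycoproteins, glycolipids and proteoglycans, in activated mouse CD8+ T cells profiled by polyA RNA sequencing. They were chosen by symbol, from 14 families named St3gal, St6gal, St8sia, Galnt, B3gnt, B4galt, B3galt, Fut, Mgat, Hs3st, Hs6st, Ndst, Chst and Gcnt, and by a mean normalized count of at least 20 over the 4 libraries. Of 49490 genes in the table, 103 symbols matched; 69 reached the mean and are the members, 14 had reads but stayed below it, and 20 were listed at 0 in all 4 libraries. Because the mean over the libraries chose the members, their overall level is a description. The study compared CD8+ T cells of spleen and lymph node origin that had been activated in vitro, with 2 libraries labelled WT (Irf8fl/fl in the design text) and 2 libraries labelled Irf8 knockout (Irf8-/-). The labels name no Cre driver, age, sex, stimulus or time of activation, and they do not say that libraries came from separate animals or cultures, so a p-value measures only how far these libraries spread, and that spread may be technical.

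The targeted gene went against the labels. Irf8, a transcription factor of the interferon regulatory factor family, read 6364 and 6081 normalized counts with the WT label and 89508 and 90222 with the knockout label, 14.4-fold higher. The deleted part of the gene is not given in the sources used here, and a total over the gene does not show it. Every direction below is therefore that of knockout-labelled over WT-labelled libraries, and neither label is taken as the state of the gene.

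Glycans are assembled in the Golgi by enzymes that each add 1 sugar or 1 sulfate to a growing chain. Mgat enzymes set the number of branches on N-glycans, Galnt enzymes start mucin-type O-glycans, and Gcnt, B3gnt, B4galt and B3galt enzymes extend and branch the chains. Fut enzymes add fucose, St3gal, St6gal and St8sia enzymes cap chains with sialic acid, and Ndst, Hs3st, Hs6st and Chst enzymes sulfate heparan sulfate, chondroitin sulfate and other chains. On T cells these structures form selectin ligands for homing, ligands or shields for galectins and sialic acid binding lectins, and the branched N-glycans that tune receptor signalling.

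The libraries held 58899365 to 59724952 reads. Marker lists of several cell types differed between the groups. The summed normalized count of 20 CD8 T cell markers was 997083 to 1000080 with the WT label and 710910 to 714512 with the knockout label, with 19 of 20 lower. The sum of 15 plasmacytoid dendritic cell markers was 27879 to 28311 against 313661 to 313932, with 15 of 15 higher, and that of 13 conventional dendritic cell markers was 28094 to 28147 against 235323 to 241233, with 12 of 13 higher. B cell markers summed to 7572 to 7967 against 38814 to 38989 (6 of 11 tested higher, with Cd79a and Ms4a1 among those not called), macrophage markers to 5764 to 5825 against 13118 to 13256 (2 higher and 6 lower of 11 tested), and neutrophil markers to 222 to 247 against 3327 to 3415 (9 of 9 tested higher). No marker was at 0 in all 4 libraries; the neutrophil genes Mpo, Elane and Camp were at 0 in the libraries labelled WT. The part of these cell types in the results below was not tested, and in bulk RNA fewer cells of a type and less RNA per cell cannot be told apart.

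Of the 69 members, 27 rose and 11 fell, and 31 did not pass the test (limma on log2 of the normalized count plus 1, Benjamini-Hochberg adjusted p under 0.05 over 18378 genes). Among all genes tested 19.9% rose and 13.4% fell, and among those with a mean of at least 20 these shares were 21.2% and 15.1%, against 39.1% and 15.9% of the members. Increases of more than 2-fold were found for 16 of the 69 members and a decrease of that size for 1, against 10.5% and 0.876% of all genes tested. Among the 16, Hs3st1, Hs3st3a1, St8sia6, Chst15 and Chst7 had a WT-labelled mean under 20. The 1 decrease, B3gnt7, had a knockout-labelled mean under 20. The median log2 fold change was 0.24 over the members and 0.02 over all genes tested. Values of the 2 groups did not overlap for 59 members, 85.5%, against 68.8% of all genes. These shares were read as descriptions, since 8 members had a group mean under 20 and owed their place to the other group; among the remaining 61, 22 rose and 10 fell. Scaling each library to its median gene shifted the fold changes by -0.30. The split among the members then became 23 higher and 25 lower. A shift of this size could not turn the sign of the 16 increases of over 2-fold, so it was no check on them. With this scaling the median log2 fold change was -0.06 over the members and -0.28 over all genes tested, and 9599 genes were called. The shift thus applied to all genes and not to the members alone. Leaving out knockout-labelled library 1 or 2, with the same 18378 genes tested, left 17 or 14 of the 38 calls. With the filter on low values reapplied to the 3 remaining libraries, 35 of the 38 could be tested and 25 or 28 held. Losses without a knockout-labelled library given below are those on the same genes, with the reapplied filter added where it differed. Of the 38, 14 kept their call under every alternative that tested them, all 16 for 13 of them and 14 for Hs3st1, which the reapplied filter removed. These were increases of Hs3st1, Chst15, St8sia1, St8sia4, St6gal1, Fut4, Gcnt2, Hs6st1, Chst14, B3gnt9, Mgat1 and Galnt12 and decreases of Chst11 and St3gal6.

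**Figure D1:**
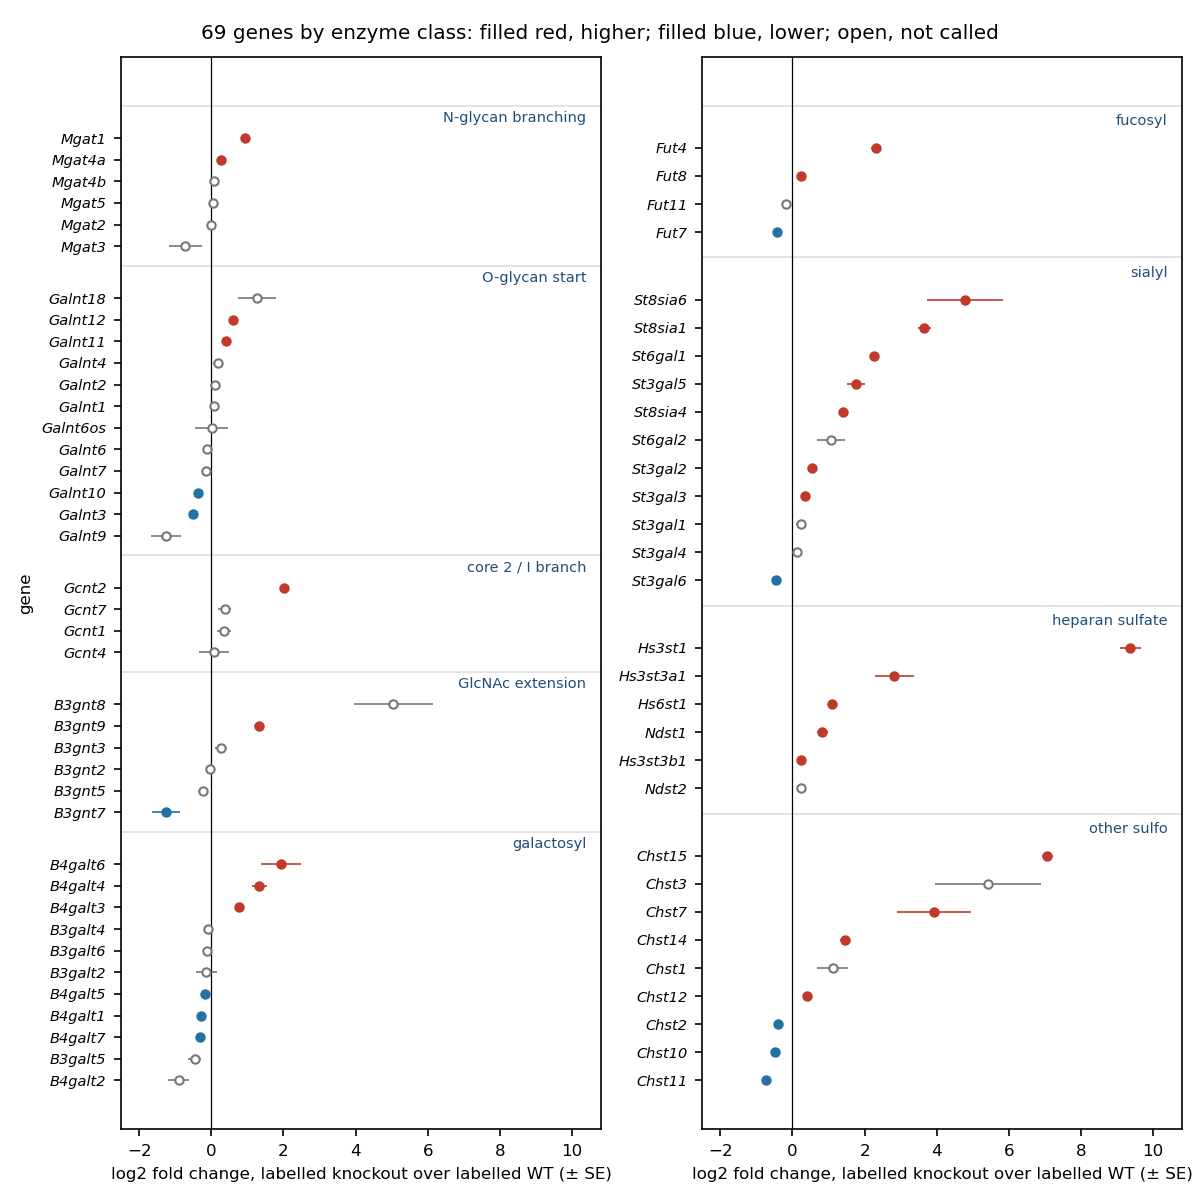
Log2 fold change (labelled knockout over labelled WT) of the 69 members by enzyme class; points are limma estimates, bars 1 SE, filled points passed the test. Hs3st1 at 9.37 and Chst15 at 7.07 lie farthest to the right, and the largest called decrease is that of B3gnt7 at -1.27.

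Of all genes tested, 19.9% rose and 13.4% fell. Among the 9 classes, the heparan sulfate sulfotransferases had the highest share of increases, 5 of 6 with none lower. The sialyltransferases followed with 7 of 11 higher and 1 lower. The Chst class split, with 4 higher and 3 lower of 9. Among these increases, Hs3st1, Hs3st3a1, St8sia6, Chst15 and Chst7 had a WT-labelled mean under 20 and owed their place to the knockout-labelled libraries. Increases were 2 of 6 Mgat genes, 1 of 4 Gcnt genes, 2 of 4 Fut genes with 1 lower, 1 of 6 B3gnt genes with 1 lower, 3 of 11 galactosyltransferase genes with 3 lower, and 2 of 12 Galnt genes with 2 lower. The lower B3gnt gene, B3gnt7, had a knockout-labelled mean under 20 and owed its place to the WT-labelled libraries.

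Heparan sulfate sulfotransferases modify the chains carried by syndecans, glypicans and related cores, and the pattern of sulfates sets which growth factors, chemokines and protease inhibitors bind. Hs3st1, which adds the rare sulfate that completes the antithrombin binding site (ENSMUSG00000051022.7, mm10 chr5:39613935-39755475, minus strand), had normalized counts of 6.11 and 3.06 with the WT label and of 3552 and 3564 with the knockout label. It was close to absent in the first pair. Per kb of exon its mean level was 2.06 against 1596 normalized counts, the latter near that of St3gal4 in the same libraries, 1866. The reads behind these values were 6 and 3 against 3625 and 3662, a ratio of 776 (exact 95% interval 408 to 1697, counting error only), and the log2 fold change was 9.37 ± 0.29 (SE, n = 2 per group; limma adjusted p = 4.05e-06). Hs3st3a1, of a related type with another substrate preference, was at 25.4 and 8.17 against 128 and 92.5, a log2 fold change of 2.82 ± 0.54 (limma adjusted p = 0.00919). Its 2 WT-labelled values lay far apart, both lay below the other pair, and the call was lost without either knockout-labelled library but held with the filter reapplied. Hs3st3b1, which encodes an enzyme with a near-identical catalytic domain, was at 1395 and 1374 against 1679 and 1600, a log2 fold change of 0.24 (limma adjusted p = 0.0388). This value turned to -0.06 with median centring, and the call was lost by edgeR, DESeq2 and the replicate block, without either knockout-labelled library (also with the filter reapplied) and without WT-labelled library 2.

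Hs6st1, which adds a sulfate to the glucosamine units of heparan sulfate, was at 688 and 583 in the libraries labelled WT and at 1362 and 1367 in those labelled knockout. The log2 fold change was 1.11 ± 0.11 (SE; limma adjusted p = 0.000465), with no overlap. Ndst1, which removes acetyl groups and adds the first sulfates that all later steps need, was at 752 and 983 against 1644 and 1419, a log2 fold change of 0.83 ± 0.15 (limma adjusted p = 0.00632). This increase lost its call without either knockout-labelled library but kept it with the filter reapplied. Ndst2, the related enzyme with a main role in mast cell heparin, was at 1214 and 1248 against 1521 and 1369 and did not pass the test (log2 fold change 0.23, limma adjusted p = 0.0803). Of the other genes of these families, Hs6st2, Hs3st6 and Ndst3 stayed below the mean of 20, and Hs6st3, Ndst4, Hs3st2, Hs3st4 and Hs3st5 were listed at 0 throughout.

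**Figure D2:**
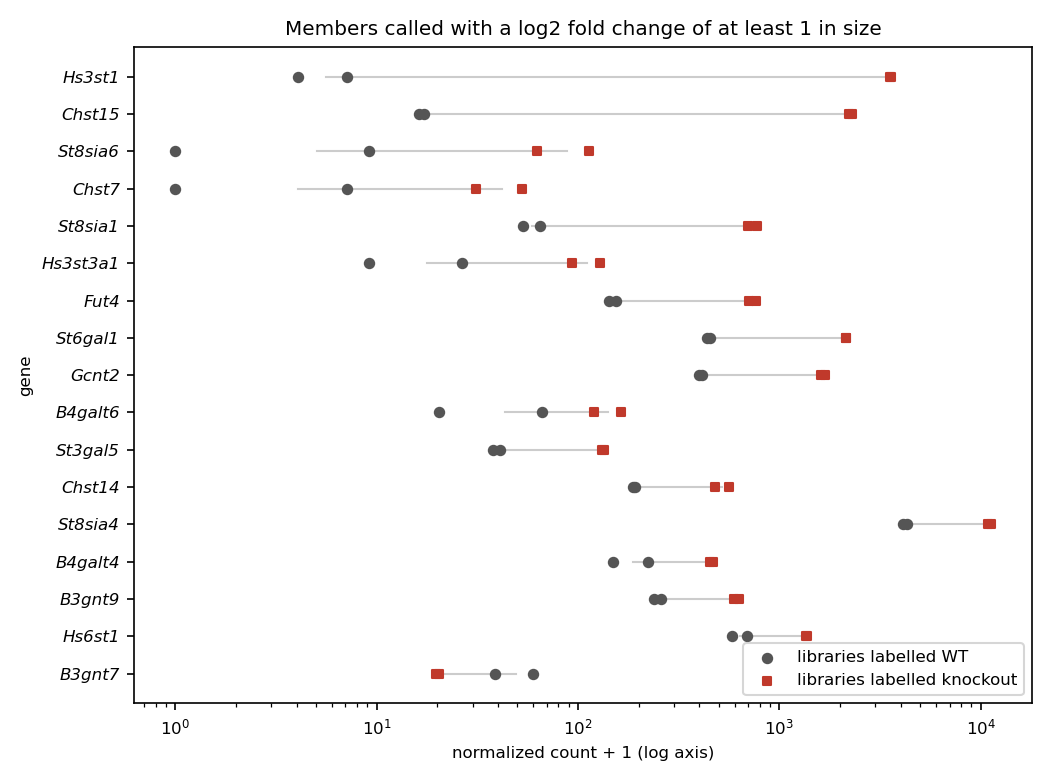
Normalized count plus 1 (log axis) in each of the 4 libraries for the 17 called members whose log2 fold change was at least 1 in size; circles are libraries labelled WT, squares those labelled knockout, and grey lines join the group means. Replicates nearly coincide for Chst15, St6gal1 and Gcnt2, while the WT-labelled circles of Hs3st3a1, St8sia6, Chst7 and B4galt6 lie apart. For Hs3st1 the knockout-labelled squares nearly coincide and the WT-labelled circles do not.

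Chst genes encode sulfotransferases of chondroitin, dermatan and keratan sulfate and of some N- and O-glycans. Chst15, which adds a further sulfate to already sulfated chondroitin to form the highly charged E unit (ENSMUSG00000030930.14, mm10 chr7:132235780-132317228, minus strand), was at 16.3 and 15.3 in the libraries labelled WT and at 2227 and 2282 in those labelled knockout. The ratio was 143 (exact 95% interval 100 to 210 for counting error), with a log2 fold change of 7.07 ± 0.16 (SE; limma adjusted p = 1.07e-06). Chst14, which sulfates dermatan, was at 187 and 191 against 561 and 480, a log2 fold change of 1.45 ± 0.14 (limma adjusted p = 0.000547). Both pairs lay well apart for both genes. Chst12, one of the enzymes that place the common chondroitin sulfate group, was at 3375 and 3410 against 4373 and 4634, a log2 fold change of 0.41 (limma adjusted p = 0.00174).

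Chst7 and Chst3, which place chondroitin sulfate at the other common position, had few reads in the libraries labelled WT. Chst7 was at 0 and 6.13 against 51.9 and 30.2, a ratio of reads of 13.4 (exact 95% interval 5.91 to 37.6) and a limma adjusted p of 0.0285 that was lost without either knockout-labelled library (the reapplied filter removed the gene). Chst3 was at 0 and 18.4 against 219 and 161, a ratio of 20.7 (interval 12.9 to 35.3), and did not pass the test (limma adjusted p = 0.0515). Both genes separated the groups, but their WT-labelled reads all came from library 2. Chst1, a keratan sulfate sulfotransferase, was at 27.5 and 14.3 against 41.2 and 47.7 without passing the test.

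A trio of Chst genes fell. Chst11, the main enzyme for the common chondroitin sulfate group alongside Chst12 (ENSMUSG00000034612.7, mm10 chr10:82985498-83195900, plus strand), was at 2790 and 2755 in the libraries labelled WT and at 1769 and 1576 in those labelled knockout, 60.3% of the WT-labelled level. The log2 fold change was -0.73 ± 0.07 (SE; limma adjusted p = 0.000645). Chst10, which makes the HNK-1 epitope, was at 1798 and 1682 against 1209 and 1271 (log2 fold change -0.49, limma adjusted p = 0.00371). Chst2, which sulfates the glucosamine of selectin ligands, was at 3113 and 3017 against 2418 and 2202 (log2 fold change -0.41, limma adjusted p = 0.00479). The calls of Chst2 and Chst12 were lost without knockout-labelled library 2, that of Chst12 also with median centring, and that of Chst10 without either knockout-labelled library; with the filter reapplied all of these held.

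The sequences just upstream of the start sites of Hs3st1, Chst15 and Chst11 are shown because these genes had the 2 largest increases among called members and the largest decrease among calls kept under every alternative that tested them. Each is the 250 bases before the RefSeq start (GRCm38.p6), written in the direction of transcription, with the GC box GGGCGG in capitals wherever it or its reverse complement occurs. They lie at chr5:39644632-39644881 (minus strand), chr7:132317229-132317478 (minus strand; the most upstream of 2 listed starts) and chr10:82985247-82985496 (plus strand).
Hs3st1: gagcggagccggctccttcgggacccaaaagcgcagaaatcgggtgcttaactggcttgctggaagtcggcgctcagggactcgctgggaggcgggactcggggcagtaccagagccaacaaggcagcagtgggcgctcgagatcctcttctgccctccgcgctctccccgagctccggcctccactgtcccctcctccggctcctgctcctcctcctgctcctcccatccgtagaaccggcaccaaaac
Chst15: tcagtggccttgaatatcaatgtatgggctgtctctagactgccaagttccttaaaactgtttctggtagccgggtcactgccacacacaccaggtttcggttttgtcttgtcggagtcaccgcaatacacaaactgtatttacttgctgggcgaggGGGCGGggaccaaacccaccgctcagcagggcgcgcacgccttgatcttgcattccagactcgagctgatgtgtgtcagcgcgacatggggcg
Chst11: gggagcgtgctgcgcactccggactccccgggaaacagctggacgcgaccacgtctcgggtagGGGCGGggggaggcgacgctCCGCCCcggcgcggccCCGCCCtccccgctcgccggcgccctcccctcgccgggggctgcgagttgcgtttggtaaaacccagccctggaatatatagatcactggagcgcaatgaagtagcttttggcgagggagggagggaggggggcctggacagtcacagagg
The Hs3st1 window had a GC content of 66.0% and no GC box, the Chst15 window 54.8% with a GC box beginning 93 bases upstream, and the Chst11 window 70.0% with 3, beginning 187, 167 and 151 bases upstream. In GENCODE M21 the Chst15 window lies inside an exon of the antisense gene Gm10584. The Hs3st1 window lies inside the GENCODE M21 span of Hs3st1 itself, whose upstream end is at 39755475. Its lack of a GC box thus holds for the RefSeq start only. Promoters were found for 57 of the 69 members, 78 start sites in all. GGGCGG, a motif chosen with the results known, occurred on either strand in 45 of those 78 windows, and in 32.7% of the 32851 windows of all genes, with median GC contents of 60.2% and 52.4%. GGAA followed after any 2 bases by GAAA, the spacing of joint ETS and interferon regulatory factor sites, and GAAA followed likewise by GAAA, that of paired interferon regulatory factor sites, were searched on both strands, overlaps allowed, and occurred in 2.30% and 2.98% of all windows and in 0 of the 78. These letter matches say nothing of whether a factor binds there or elsewhere.

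Sialyltransferases end chains with sialic acid, and the linkage decides which lectins can bind. St6gal1, which makes the linkage read by the B cell lectin CD22 (ENSMUSG00000022885.16, mm10 chr16:23224740-23360350, plus strand), was at 451 and 437 in the libraries labelled WT and at 2137 and 2151 in those labelled knockout. It rose 4.83-fold with replicates that nearly coincided (log2 fold change 2.27 ± 0.08, SE; limma adjusted p = 6.95e-06). St8sia4, a polysialyltransferase that extends chains on a few carriers such as NCAM and neuropilin-2 (ENSMUSG00000040710.10, mm10 chr1:95587682-95667571, minus strand), was at 4133 and 4303 against 11276 and 10870, 2.63-fold higher (log2 fold change 1.39 ± 0.05, limma adjusted p = 4.80e-06). Per kb of exon the mean level of St8sia4 was 210 against 551 normalized counts, below that of St3gal4 in both groups, 1697 and 1866.

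St8sia6, another enzyme that adds sialic acid to sialic acid, was at 0 and 8.17 against 113 and 61.3, a ratio of reads of 21.3 (exact 95% interval 10.6 to 50.1; limma adjusted p = 0.0154). Its WT-labelled reads came from library 2 alone, and the call was lost by DESeq2 as run here and without either knockout-labelled library (the reapplied filter removed the gene). The authors' deposited result for St8sia6 was a log2 fold change of 4.41 (knockout-labelled over WT-labelled; Wald test adjusted p = 1.19e-05). St3gal2 and St3gal3 rose by less, with log2 fold changes of 0.55 and 0.36, and both calls were lost without either knockout-labelled library. With the filter reapplied that of St3gal2 held and that of St3gal3 did not, and St3gal3 also lost its call without WT-labelled library 1, with median centring and with edgeR upper-quartile factors. St3gal6, which caps selectin ligands, fell from 6886 and 7055 to 5037 and 5136 (log2 fold change -0.45 ± 0.04, limma adjusted p = 0.000444). St3gal4, which shares that role, was at 5146 and 4776 against 5420 and 5491 and did not pass the test (limma adjusted p = 0.0931). St3gal1, which caps the short O-glycans of T cells, had a log2 fold change of 0.23 and St6gal2 one of 1.07, neither past the test.

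Several members act on glycolipids, in the route from glucosylceramide to gangliosides. B4galt6, one of the enzymes that turn glucosylceramide into lactosylceramide, was at 19.3 and 65.4 against 163 and 119 (log2 fold change 1.93 ± 0.55, SE; limma adjusted p = 0.0394), a call lost without either knockout-labelled library, also with the filter reapplied. B4galt5, which does the same step, was at 12144 and 11138 against 10470 and 9974 (log2 fold change -0.19, limma adjusted p = 0.0390), a call lost in the same fits and without WT-labelled library 1. Per kb of exon B4galt5 exceeded B4galt6 in all 4 libraries.

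St3gal5, the synthase of the ganglioside GM3, was at 36.6 and 39.8 in the libraries labelled WT and at 134 and 130 in those labelled knockout (log2 fold change 1.77 ± 0.24, limma adjusted p = 0.00222). Its call was lost without either knockout-labelled library, but held with the filter reapplied, at log2 fold changes of 1.75 and 1.79. St8sia1, the synthase of GD3 (ENSMUSG00000030283.7, mm10 chr6:142821545-142964452, minus strand), was at 64.1 and 52.1 against 778 and 697, 12.7-fold higher (log2 fold change 3.65 ± 0.18, limma adjusted p = 2.74e-05). For both genes the replicates lay close together and the groups far apart. Outside the members, Ugcg, which makes glucosylceramide, and B4galnt1, which makes the complex gangliosides, fell by 0.26 and 0.34 on the log2 scale (limma adjusted p = 0.00248 and 0.000361).

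Fucosyltransferases finish Lewis-type structures or modify the N-glycan core. Fut4, which makes the Lewis X epitope on myeloid cells (ENSMUSG00000049307.6, mm10 chr9:14748320-14752393, minus strand), was at 154 and 141 in the libraries labelled WT and at 766 and 706 in those labelled knockout. It rose 5.00-fold (log2 fold change 2.31 ± 0.13, SE; limma adjusted p = 5.58e-05). Fut7, the enzyme most closely tied to selectin ligands in T cells, was at 806 and 926 against 604 and 674 and fell (log2 fold change -0.44 ± 0.11, limma adjusted p = 0.0285). The pairs did not overlap, and the call was lost without either knockout-labelled library (with the filter reapplied, without library 1 only) and without WT-labelled library 2. Fut8, which adds the core fucose, had a log2 fold change of 0.25 (limma adjusted p = 0.0190; -0.05 with median centring, and not called with edgeR upper-quartile factors or, with or without the filter reapplied, without either knockout-labelled library), and Fut11 one of -0.19, not past the test.

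Gcnt enzymes add branches to O-glycans and to poly-lactosamine. Gcnt2, which makes the branched I antigen (ENSMUSG00000021360.16, mm10 chr13:40859754-40960892, plus strand), was at 413 and 397 in the libraries labelled WT and at 1614 and 1677 in those labelled knockout, 4.06-fold higher (log2 fold change 2.02 ± 0.09, SE; limma adjusted p = 1.56e-05). Gcnt1, the core 2 enzyme induced in activated CD8+ T cells, was at 159 and 144 against 171 and 215 and did not pass the test. Gcnt7 and Gcnt4 had log2 fold changes of 0.37 and 0.07 without passing it.

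B3gnt enzymes extend chains with N-acetylglucosamine. B3gnt9 was at 237 and 256 against 598 and 629 (log2 fold change 1.31 ± 0.12, SE; limma adjusted p = 0.000435). B3gnt7, a keratan sulfate and lactosamine extension enzyme, was at 59.0 and 37.8 against 18.6 and 19.5 (log2 fold change -1.27 ± 0.39, limma adjusted p = 0.0476), and its call was lost without either knockout-labelled library (also with the filter reapplied), without WT-labelled library 1, with the replicate block and by DESeq2. B3gnt2, the main poly-lactosamine synthase, was at 6017 and 5686 against 5768 and 5598, a log2 fold change of -0.04.

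B3gnt8, which acts with B3gnt2 on poly-lactosamine, was called in some fits and not in others. It was at 30.5 and 193 in the libraries labelled WT and at 2453 and 2695 in those labelled knockout (ENSMUSG00000059479.7, mm10 chr7:25626654-25635100, plus strand). The groups were far apart, but the WT-labelled values also lay far apart from each other. The limma test gave a log2 fold change of 5.04 ± 1.09 (SE) and an adjusted p of 0.0588, edgeR an adjusted p of 0.0734 and DESeq2 one of 0.000372. Other limma fits called it: without the robust variance (adjusted p = 0.00548), with no filter (0.0145), with a pseudocount of 0.1 (0.0478), with median centring (0.0474) and without WT-labelled library 1 (9.28e-09; log2 fold change 3.73) or 2 (1.08e-09; 6.35). Without either knockout-labelled library it was not called. The authors' deposited table gave B3gnt8 a log2 fold change of 4.53 with an adjusted p of 0.000458.

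Galactosyltransferases make lactosamine and the linker of proteoglycans. B4galt1, the member with the highest level per kb of exon in both groups, was at 14245 and 13943 in the libraries labelled WT and at 11986 and 11189 in those labelled knockout (log2 fold change -0.28, limma adjusted p = 0.00404, lost without knockout-labelled library 2 but not with the filter reapplied). B4galt4, which acts on sulfated acceptors, was at 149 and 223 against 450 and 465 (log2 fold change 1.33 ± 0.21, limma adjusted p = 0.00429). B4galt3 rose by 0.75 and B4galt7, which attaches the first galactose of the proteoglycan linker, fell by 0.31 on the log2 scale. Calls of B4galt3, B4galt4 and B4galt7 were lost without either knockout-labelled library but all held with the filter reapplied, at log2 fold changes of 0.76 and 0.74 for B4galt3, 1.35 and 1.30 for B4galt4, and -0.32 and -0.30 for B4galt7. B4galt2 had a log2 fold change of -0.91 (limma adjusted p = 0.0594), and B3galt2, B3galt4, B3galt5 and B3galt6 had values from -0.46 to -0.09, none past the test.

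Mgat1 opens the route from high-mannose to hybrid and complex N-glycans (ENSMUSG00000020346.16, mm10 chr11:49244191-49263030, plus strand). It was at 6596 and 6335 in the libraries labelled WT and at 12402 and 12507 in those labelled knockout, 1.93-fold higher (log2 fold change 0.95 ± 0.04, SE; limma adjusted p = 1.46e-05). Mgat2, the next branching enzyme, was at 5698 and 5279 against 5474 and 5347, with overlapping groups. Mgat4a had a log2 fold change of 0.28 (limma adjusted p = 0.0430), which became -0.02 with median centring. Its call was lost by edgeR (adjusted p = 0.0527 with TMM and 0.129 with upper-quartile factors), by DESeq2 (0.0640), with the replicate block (0.0606), without either knockout-labelled library (also with the filter reapplied) and without WT-labelled library 2. Mgat4b, Mgat5, whose branches bind galectins and restrain T cell receptor signalling, and Mgat3, which adds the bisecting residue, had log2 fold changes of 0.07, 0.05 and -0.72, none past the test.

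Of the Galnt genes, whose enzymes overlap in substrates, 4 of 12 passed the test, 33.3% against 33.4% of all genes tested. Galnt12 rose by 0.59 and Galnt11 by 0.41 on the log2 scale, and Galnt10 and Galnt3 fell by 0.38 and 0.52 (limma adjusted p from 0.00123 to 0.0120). With median centring Galnt11 had a log2 fold change of 0.11 and lost its call. Without either knockout-labelled library Galnt12 kept its call and the other 3 lost theirs on the same genes; with the filter reapplied Galnt10 also kept its call in both fits, and Galnt11 and Galnt3 lost theirs without library 1. Galnt2, at 4830 and 4129 against 4806 and 4825, and Galnt1, at 4395 and 4198 against 4595 and 4421, were among the 10 members with the highest mean and did not pass the test. Galnt4, Galnt6, Galnt7, Galnt9 and Galnt18 had log2 fold changes of 0.17, -0.12, -0.14, -1.25 and 1.27, none past the test. The symbol pattern also took in Galnt6os, an antisense RNA and not an enzyme, at 25.4 and 25.5 against 35.3 and 18.5.

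Within families, the share of each member was computed per kb of exon (union of GENCODE M21 exons). Hs3st3b1 held 96.9% and 98.8% of the Hs3st sum under the WT label and 17.4% and 16.7% under the knockout label, where Hs3st1 held 81.0% and 82.1%. The Hs3st sum itself was 293 and 283 against 1967 and 1948 normalized counts per kb. The most abundant member of the family thus differed between the groups. In the Gcnt family Gcnt7 led in the libraries labelled WT with 42.4% and 44.1%, and Gcnt2 led in those labelled knockout with 64.1% and 64.8%. In the Mgat family Mgat2 led with 47.8% and 46.8% and Mgat1 with 45.8% and 46.0%, respectively. The Gcnt and Mgat changes of leader depended on dividing by exon length. In normalized counts not divided by length, Gcnt2 exceeded Gcnt7 and Mgat1 exceeded Mgat2 in every library. Under the WT label Gcnt2 was at 413 and 397 and Gcnt7 at 155 and 150.

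In the Chst, St8sia and B3gnt families the same member led in all 4 libraries, and a minor one held a larger share under the knockout label. Chst12 held 54.7% to 59.9% of the Chst sum in all 4 libraries, while Chst15 went from 0.09% in both libraries labelled WT to 10.1% and 10.3%, and Chst11 from 19.3% and 19.2% to 9.78% and 8.70%. St8sia4 held 96.8% and 97.0% of the St8sia sum against 85.1% and 86.8%, with St8sia1 at 3.23% and 2.52% against 12.6% and 12.0%. B3gnt8 held 0.26% and 1.72% of the B3gnt sum against 16.9% and 18.8%. Fut4 held 3.38% and 2.99% of the Fut sum against 15.7% and 14.5%, in a family that Fut11 led under the WT label and Fut8 under the knockout label. In normalized counts not divided by exon length, Fut8 led that family in every library. These shares carry no test of their own and, being parts of a sum, one member's rise lowers the others.

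**Figure D3:**
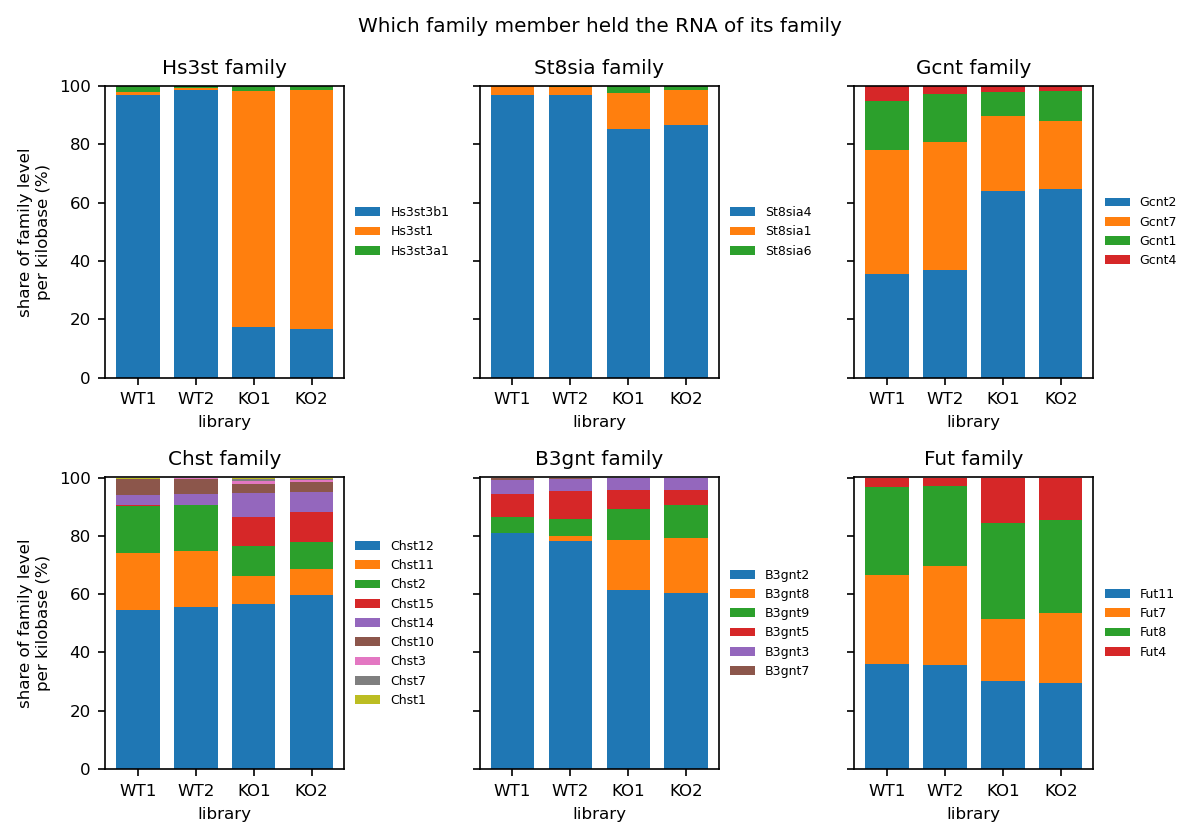
Share of the family's summed normalized count per kb of exon (percent) held by each member in each of the 4 libraries (WT1, WT2, KO1, KO2 by label), for 6 families. In the Hs3st bars Hs3st3b1 fills nearly all of both WT-labelled libraries and Hs3st1 over 80% of both knockout-labelled ones, while Chst12 stays the largest Chst segment.

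Genes of the same pathways outside the 14 families were taken from 8 lists, chosen with earlier results of these data known. Of 157 tested, 64 rose and 19 fell, 52.9% called against 33.4% of all genes. Counts per list below stand beside 19.9% higher and 13.4% lower among all genes tested. Proteoglycan cores, the proteins that carry the sulfated chains, had 11 of 15 higher and none lower. Sdc4, a heparan sulfate carrier, was at 459 and 430 against 6661 and 6436 (log2 fold change 3.88, limma adjusted p = 4.51e-07). Cd74, the invariant chain, part of which carries chondroitin sulfate, rose 16.0-fold (limma adjusted p = 4.32e-08), while Srgn, the main proteoglycan of T cell granules, had a log2 fold change of -0.15, not past the test. Cd74 is also a gene of antigen-presenting cells, whose marker sums are given above.

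Enzymes that build and trim glycosaminoglycan chains had 9 higher and 6 lower of 23. Hpse, the heparanase that cleaves heparan sulfate, was at 396 and 503 against 4204 and 4160 (log2 fold change 3.22, limma adjusted p = 8.59e-06), and Glce, the epimerase that acts between Ndst1 and the later sulfotransferases, rose by 1.21. Chsy1 and Chpf, which polymerize chondroitin, fell by 0.52 and 0.37. Donor synthesis and transport had 12 higher and 0 lower of 38, 31.6% called against 33.4% of all genes tested. Cmah, which makes N-glycolylneuraminic acid, and Gne, which starts sialic acid synthesis, were up by 0.96 and 0.88.

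Early N-glycan enzymes had 9 higher and 3 lower of 21. Man1c1, a mannosidase acting before Mgat1, was at 357 and 396 against 3831 and 4181 (log2 fold change 3.41, limma adjusted p = 2.14e-06), and Man2a2, acting after it, was at 1913 and 1931 against 7360 and 7086 (log2 fold change 1.91, limma adjusted p = 2.03e-06). Their paralogs Man1a and Man2a1 fell by 0.26 and 0.39. Core O-glycan and related enzymes had 4 higher and 2 lower of 13; B3galnt1, which makes globoside, was at 7.12 and 0 against 542 and 503 (log2 fold change 7.52, limma adjusted p = 0.00240), and C1galt1c1, the chaperone of core 1 synthesis, rose by 0.62.

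Fringe, O-fucose and O-mannose enzymes had 5 higher and 2 lower of 14, with Poglut1, a Notch glucosyltransferase, up by 0.88 on the log2 scale, and the fringes Lfng and Mfng down by values of -0.63 and -0.32. Lectins and scaffolds had 3 higher and 3 lower of 11. Lgals4, a galectin, rose by 1.57. Lgals3, a galectin that binds branched N-glycans, and Spn, the mucin CD43, fell by 0.51 and 0.25. Lysosomal hydrolases had 11 higher and 3 lower of 22, with Hexa up by 1.20 and the heparan sulfate degrading Hgsnat and Sgsh down by values of -0.44 and -0.42.

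**Figure D4:**
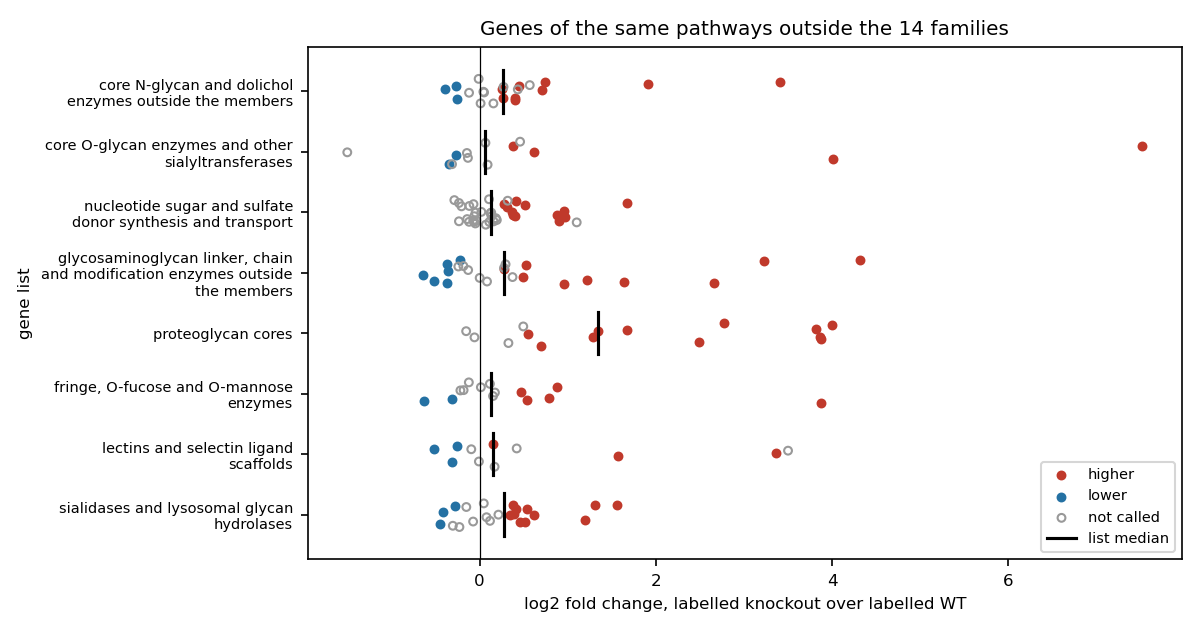
Log2 fold change (labelled knockout over labelled WT) of the 157 tested genes of the 8 lists outside the 14 families; each point is a gene, filled when it passed the test, and black bars are list medians. The proteoglycan cores have the highest median, 1.35, and the point farthest right is B3galnt1 at 7.52.

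Some values may include reads of neighbouring genes, since strand use in the counting is not given in the sources used here. Exon bases were shared with another gene for 28 members and exceeded 20% of the exons for 6. Among called members, Hs3st3a1 shared 32.9% with the antisense F930015N05Rik and St3gal6 26.0% with Dcbld2. Chst15 shared 17.9% with the antisense Gm10584, and B3gnt9 16.5% with the antisense D230025D16Rik. Among the others, B3gnt8 shared 18.1% with the antisense Bckdha, Galnt6os 22.4% with Galnt6 and B4galt2 28.2% with the same-strand Ccdc24. Galnt2 and B3gnt2 shared 90.0% and 58.6% with same-strand gene models, Gm20388 and Gm28048. The members just above the threshold on the mean were Chst7 (22.1), Mgat3 (23.1) and Galnt6os (26.2), and those just below were Galnt14 (11.3), Chst13 (6.84) and Hs3st6 (6.65).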

How the data were processed

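RNA from 4 libraries, 2 per label, was read from 1 table. The submitters' processing notes name the mm10 build and the tools HISAT2 2.2.1, StringTie 2.1.4, Trim Galore 0.4.4 and DESeq2, without their roles. Settings, annotation and strand: not given in the sources used here. In 1 table the authors deposited gene counts divided by size factors (a normalized signal), with their own log2 fold changes, test scores and p-values. Multiplying by size factors recovered whole reads for 100% of values (tolerance 0.01 reads), 58899365 to 59724952 per library, so intervals on ratios cover counting error only.

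Members are symbols of the 14 families with a mean of at least 20 over the 4 libraries; members and lists were chosen with earlier results of these data known. Genes with at least 10 normalized counts in 2 libraries (18378) were tested with limma 3.58.1 (R 4.3.3; trend, robust) on log2 of the value plus 1, with Benjamini-Hochberg adjustment over all of them and a threshold of 0.05. An exact permutation test of 2 against 2 cannot go below p = 0.333. Recovered reads were tested with edgeR 4.0.16 and DESeq2 1.42.0 as alternatives. Other alternatives were a pseudocount of 0.1 or 10, a minimum of 50 or none, median centring, a replicate block and leaving out each library; those that left out a knockout-labelled library with the filter reapplied were chosen after seeing the data. The limma code was tested on simulated data, and the edgeR and DESeq2 code was not. Genes named in full are called members with a log2 fold change of at least 1 in size, the 10 highest means and the 3 on each side of the threshold; from each list outside the families, up to 2 higher and 2 lower genes with the smallest adjusted p. A gene at 0 in 1 WT-labelled library, or with few reads, was given its ratio of summed reads with an exact interval at 95%. Gene positions and exon lengths came from GENCODE M21, promoters from RefSeq (GRCm38.p6). Names turned into dates in the table (24) were left unmatched. The results of some genes taken by these naming rules were left out of the text.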

Additional observations from a re-analysis of the deposited data

How the results depend on the processing

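Against 27 members higher, 11 lower, 83 listed pathway genes called and 6131 genes called in all, median centring gave 25 members lower and 9599 genes. Leaving out 1 library gave 12 to 32 members higher, 2 to 11 lower, 35 to 93 pathway genes and 1939 to 6896 genes; the lowest values came without knockout-labelled library 2. With the filter reapplied, leaving out knockout-labelled library 1 or 2 gave 7 or 9 members lower and 3762 or 3735 genes. Replicate numbers were not shown to pair the libraries: the labels do not say so, there are 2 pairs, and the differences within the groups had a correlation of 0.0172 over genes. With the replicate block 26 members rose, 10 fell, and 79 pathway genes and 5583 genes were called. Of 38 called members, 14 kept call and sign in every alternative that tested them, 13 in all 16 and Hs3st1 in 14. With no filter 7 calls were lost (B3gnt7, B4galt5, B4galt6, Chst7, Fut7, Hs3st3b1, Mgat4a), without robust variance B3gnt7, B4galt5 and B4galt6, and with a pseudocount of 0.1 B4galt6, Chst7 and St8sia6. Centring reversed Mgat4a (-0.0197), Hs3st3b1 (-0.0571) and Fut8 (-0.0520). Members not called that changed sign with centring were Mgat5 (-0.25), B3gnt3 (-0.0422), Galnt2 (-0.19), St3gal4 (-0.16), Galnt4 (-0.13), Mgat4b (-0.23), Gcnt4 (-0.23), Ndst2 (-0.0715), St3gal1 (-0.0744), Galnt6os (-0.29) and Galnt1 (-0.23). With edgeR upper-quartile factors these were Mgat5 (-0.0311), Mgat4b (-0.0054), Gcnt4 (-0.0758), Galnt6os (-0.0040) and Galnt1 (-0.0111), and Gcnt4 with TMM factors (-0.0029) and DESeq2 (-0.0042). Leaving out 1 library gave log2 fold changes of both signs for Mgat5 (-0.0125 to 0.1099), B3galt2 (-0.3115 to 0.0385), Galnt6os (-0.44 to 0.4537), Galnt2 (-0.0043 to 0.2217), Gcnt4 (-0.38 to 0.5216) and Mgat2 (-0.0748 to 0.0353), with the same turned values for Mgat5, B3galt2 and Galnt6os when the filter was reapplied. The cause was not tested. With 2 libraries per group and few reads, changes of the rarest members were the least precise.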
